A study of Mus musculus with 8 samples.

Results

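The genes described here are the insulin-like growth factors, their receptors and their binding proteins in mouse tumors. They were taken by name, as the 2 ligands Igf1 and Igf2, the 2 receptors Igf1r and Igf2r, and the 6 binding proteins Igfbp2 to Igfbp7, so that the 10 members stand among 27179 genes in all. The tumors were grown under the skin of male CD2F1 mice from cxC26, a cachectic line of the mouse colon carcinoma 26 that originated in the BALB/c strain. The 4 cxC26 scr tumors carried a scrambled guide RNA and the 4 cxC26 IL6KOs1 tumors came from a single subclone in which Il6, the gene for interleukin 6, had been disrupted by CRISPR/Cas9. The study's methods describe a lentiviral Cas9 and guide vector for the knockout cells, and do not state the vector of the scrambled control. Because the knockout is 1 clone, the effect of the Il6 disruption and that of the clone cannot be told apart. By the study's methods the mice were 13 to 18 weeks old and were euthanized after a weight loss of more than 15%, and the labels give no day or number of implanted cells for the sequenced tumors. In other experiments of the study more knockout cells were implanted and tumors were collected later, so that time of growth may differ too.

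IGF1 and IGF2 are secreted growth factors that act through the receptor tyrosine kinase IGF1R, which signals by way of insulin receptor substrates, PI3K and AKT. IGF2R, the cation-independent mannose 6-phosphate receptor, removes IGF2 from the cell surface and carries lysosomal enzymes to lysosomes. In tissue fluids the ligands are held by binding proteins, which prolong their life and limit or present them to the receptor. Proteases such as PAPP-A cleave binding proteins and so release the ligand.

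Of the 10 members, 8 passed the filter of at least 1 CPM (reads scaled to the library total) in at least 4 tumors. The lowest value of these 8 in any tumor was 2.48 log2 CPM, so none of them passed through 1 group alone. Igf1, Igfbp4 and Igfbp6 rose in the cxC26 IL6KOs1 tumors and both receptors fell, while Igfbp3, Igfbp5 and Igfbp7 did not pass the test. The 5 of 8 called stand beside 39.8% of all 13262 genes tested, which were called by the same limma test at an adjusted p under 0.05. In single directions, 3 of the 8 were higher against 19.1% of all genes, and 2 were lower against 20.7%. With 8 genes these shares are a description only. The median difference of the 8 was 0.17 on the log2 scale, against -0.0029 over all genes tested.

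**Figure D1:**
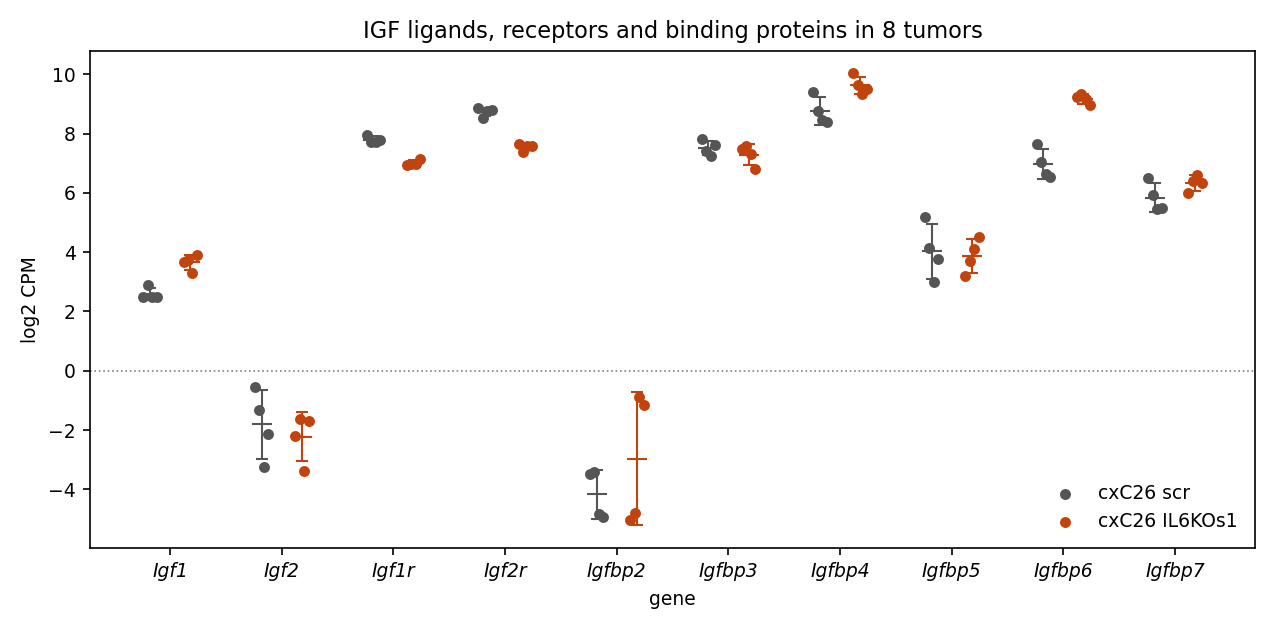
Log2 CPM of each member (vertical axis) by gene (horizontal axis) in the 4 cxC26 scr tumors (grey) and the 4 cxC26 IL6KOs1 tumors (orange), where points are tumors, long ticks are means and bars are 1 SD. The groups lie apart for Igf1, Igf1r, Igf2r and Igfbp6, and the values of Igf2 and Igfbp2 below 0 rest on 0 to 11 reads per tumor.

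The libraries held between 14158989 and 17048062 reads on genes. For Il6, counts of 326 to 438 in cxC26 scr against 56 to 86 in cxC26 IL6KOs1 fitted the labels. Of 5 colon epithelial markers tested, 2 were higher and 1 was lower. Krt18 rose by 3.20 and Cdh1 by 1.46 on the log2 scale. Cdx2 was at 0.76 log2 CPM in cxC26 scr and at -4.52 in cxC26 IL6KOs1, where 0 reads give -5.02 to -4.79. Cdx2 passed the filter through the cxC26 scr tumors alone, which favoured a lower call, so that call is a description only. Krt20 was the highest of the colon epithelial markers, at 10.20 log2 CPM in cxC26 scr and 10.42 in cxC26 IL6KOs1. Krt19, Cdx1 and Vil1 had 3 reads or fewer in every tumor. The summed CPM of the 8 macrophage markers was 551 to 747 in cxC26 scr and 983 to 1681 in cxC26 IL6KOs1, and 7 of the 8 rose. All 5 pan-leukocyte markers rose, from a sum of 152 to 181 up to 260 to 536 CPM. Fibroblast markers summed to 7998 to 10450 CPM in cxC26 scr and 5720 to 8836 in cxC26 IL6KOs1, with 2 of 10 higher and 4 lower. Skeletal muscle markers were uneven between tumors, from 8.51 to 158 CPM in cxC26 scr and from 24.2 to 332 in cxC26 IL6KOs1. In bulk tumors, fewer cells of a type and less RNA per cell cannot be told apart. The tumors are separate samples by their titles alone, so p-values measure the spread between these samples.

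Among the ligands, Igf1 (chr10:87858265-87937047, GRCm38, forward strand) was low and rose. It measured 2.49, 2.91, 2.48 and 2.49 log2 CPM in the cxC26 scr tumors and 3.66, 3.73, 3.30 and 3.91 in the cxC26 IL6KOs1 tumors. All 4 knockout tumors lay above all 4 scr tumors. The mean rose from 2.59 ± 0.21 to 3.65 ± 0.26 (SD, n = 4 each), a difference of 1.06 (SE 0.17, adjusted p = 0.000633, limma) or 2.08-fold. These values rest on 79 to 121 reads per tumor in cxC26 scr and 155 to 218 in cxC26 IL6KOs1. The macrophage and leukocyte sums given above moved in the same direction as Igf1. Within the groups, Igf1 was highest in cxC26 scr tumor 2 and cxC26 IL6KOs1 tumor 4. The skeletal muscle sum was highest in the same tumors (158 and 332 CPM). The macrophage sum was highest in cxC26 scr tumor 2 (747 CPM) and cxC26 IL6KOs1 tumor 1 (1681 CPM). The part of any of these cells in the rise of Igf1 was not tested. The median difference of the 128 other genes in its 10 Mb window was 0.31, so that Igf1 lay 0.75 above its surroundings.

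Igf2 (chr7:142650768-142666816, reverse strand), the growth factor of fetal tissues that is expressed from the paternal allele, was close to the detection floor in both groups. The scr tumors gave 11, 6, 1 and 3 reads, and the knockout tumors gave 3, 4, 1 and 4. The groups overlapped, and the totals of 21 and 12 reads gave a ratio of 0.592 with a 95% interval of 0.265 to 1.26, which covers counting error only. No difference was detectable at this depth. H19, the maternally expressed RNA beside Igf2, was at 2.04 and 2.11 log2 CPM in the respective groups (adjusted p = 0.937, limma), and the antisense gene Igf2os had 0 reads in all 8 tumors.

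The receptors fell together. Igf1r (chr7:67952257-68233668, forward strand, 21 exons), the kinase that carries the signal of both ligands, measured 7.97, 7.71, 7.70 and 7.77 log2 CPM in cxC26 scr and 6.95, 6.99, 6.96 and 7.15 in cxC26 IL6KOs1. Every knockout tumor was lower than every scr tumor. The means were 7.79 ± 0.12 and 7.01 ± 0.10 (SD, n = 4 each), a difference of -0.78 (SE 0.0871, adjusted p = 6.1e-05, limma), which left 58.4% of the scr level. Its window held 28 other genes with a median difference of -0.12.

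Igf2r (chr17:12682406-12769706, reverse strand, 48 exons) had the larger fall. It measured 8.87, 8.53, 8.74 and 8.78 log2 CPM in cxC26 scr and 7.64, 7.39, 7.58 and 7.59 in cxC26 IL6KOs1, with no overlap. The means of 8.73 ± 0.14 and 7.55 ± 0.11 (SD, n = 4 each) differed by -1.18 (SE 0.0944, adjusted p = 5.72e-06, limma), which left 44.1% of the scr level. The 41 other genes of its window had a median difference of -0.05. Igf2r overlaps Airn, the antisense RNA of this imprinted locus, and the library kit did not mark strand. Airn was at 1.71 and 1.70 log2 CPM in the respective groups (adjusted p = 0.98, limma). The part of antisense reads in the Igf2r values was not tested.

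Insr, the insulin receptor and nearest relative of Igf1r, measured 7.69 and 7.53 log2 CPM in the respective groups, a difference of -0.17 with a 95% interval of -0.35 to 0.02 (adjusted p = 0.141, limma). Within single tumors, log2 Igf1r minus Igf2r was -0.94 ± 0.10 in cxC26 scr and -0.54 ± 0.15 in cxC26 IL6KOs1, without overlap. Igf1r minus Insr was 0.10 ± 0.13 and -0.51 ± 0.14, and Igf2r minus Insr 1.04 ± 0.05 and 0.02 ± 0.12 (SD, n = 4 each), again without overlap. The ratios were chosen after the values had been seen. The Igf1r to Igf2r ratio was tested with 10 ratios among binding proteins by exact permutation, and its p of 0.0286, the smallest possible, became 0.0524 after adjustment over these 11. The 2 ratios to Insr were added after those 11 and were given no test.

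The start regions of both receptor genes are shown because the receptors moved together. The sequences are from RefSeq on GRCm38.p6, which gave 14 start regions for the 10 members, each from 250 bases before to 50 bases after an annotated start. Capitals mark the GC box GGGCGG and the E box CACGTG, searched on both strands. The E box was added to the search after these sequences had been read. The Igf1r region is chr7:67952007-67952306 (forward strand) and the Igf2r region chr17:12769657-12769956 (reverse strand).
Igf1r: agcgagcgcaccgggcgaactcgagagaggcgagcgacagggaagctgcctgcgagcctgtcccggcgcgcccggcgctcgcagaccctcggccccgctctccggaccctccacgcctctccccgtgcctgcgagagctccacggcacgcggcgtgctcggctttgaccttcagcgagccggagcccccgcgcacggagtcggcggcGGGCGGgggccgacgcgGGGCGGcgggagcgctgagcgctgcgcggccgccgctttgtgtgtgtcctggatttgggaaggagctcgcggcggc
Igf2r: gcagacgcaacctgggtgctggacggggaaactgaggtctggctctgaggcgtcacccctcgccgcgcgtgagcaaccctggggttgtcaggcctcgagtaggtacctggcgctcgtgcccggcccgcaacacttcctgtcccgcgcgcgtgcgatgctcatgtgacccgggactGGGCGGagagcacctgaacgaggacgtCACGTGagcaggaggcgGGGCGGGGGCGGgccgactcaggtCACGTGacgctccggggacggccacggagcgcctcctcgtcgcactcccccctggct
The Igf1r region had a GC content of 76% with 48 CpG and the Igf2r region 70.7% with 34 CpG, against medians of 52.7% and 7 over all 32851 RefSeq start regions of this length. There were 2 GC boxes in the Igf1r region and 3 in the Igf2r region, where 35.7% of all regions held at least 1. GC boxes were not particular to the receptors, with 4 in the Igfbp7 region, 3 in 1 Igfbp2 region, and 2 and 1 in single Igf2 regions. The regions of Igf1, Igfbp3, Igfbp4, Igfbp5 and Igfbp6 held 0. The Igf2r region also held 2 E boxes, a motif found in 7.15% of all regions, and 1 Igfbp2 region held 1. The STAT motif TTCNNNGAA, found in 8.3% of all regions, and the FOXO motif GTAAACA, in 3.65%, were in none of the 14 member regions. The AP-1 motif TGANTCA, found in 7.81% of all regions, had 1 match in the Igf1 region and 1 in 1 Igfbp2 region. These matches are a description of letters in these windows only.

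Igfbp6 (chr15:102144186-102149512, forward strand), which binds IGF2 in preference to IGF1, had the largest difference of the 8 members tested. It measured 7.66, 7.05, 6.62 and 6.54 log2 CPM in cxC26 scr and 9.23, 9.33, 9.15 and 8.95 in cxC26 IL6KOs1. The lowest knockout tumor stood more than 1 log2 unit above the highest scr tumor. The means were 6.97 ± 0.51 and 9.17 ± 0.16 (SD, n = 4 each), a difference of 2.20 (SE 0.204, adjusted p = 1.69e-05, limma) or 4.59-fold. The median difference of the 58 other genes in its window was 0.06.

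Igfbp4 (chr11:99040005-99052655, forward strand), the binding protein that PAPP-A cleaves in the presence of IGF, also rose. It measured 9.40, 8.77, 8.45 and 8.40 log2 CPM in cxC26 scr and 10.03, 9.64, 9.35 and 9.49 in cxC26 IL6KOs1. The groups overlapped, since cxC26 IL6KOs1 tumor 3 lay below cxC26 scr tumor 1, and the other 3 knockout tumors lay above all scr tumors. The means of 8.76 ± 0.46 and 9.63 ± 0.29 (SD, n = 4 each) differed by 0.87 (SE 0.21, adjusted p = 0.00679, limma) or 1.83-fold, while the 109 other genes of its window had a median of -0.20. In a two-sided exact permutation test of this gene alone p was 0.0571, where the smallest possible is 0.0286.

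With Igfbp4 and Igfbp6 included, 4 of the 8 members tested did not overlap between groups (Igf1, Igf1r, Igf2r and Igfbp6), where 37.1% of all genes tested did not. By direction, 17.8% of all genes lay wholly higher and 19.3% wholly lower in the knockout tumors, and the members that did so were Igf1 and Igfbp6 above and both receptors below. The start regions of the binding proteins that rose are shown as well. Capitals mark the letters TATAAA of the TATA box, which read TTTATA where they lie on the opposite strand. The regions are chr11:99040994-99041293 for Igfbp4 and chr15:102143936-102144235 for Igfbp6, both on the forward strand. The Igfbp4 region lies inside the gene span given above, after its first base at 99040005. The Igfbp6 region holds the first base of its gene span.
Igfbp4: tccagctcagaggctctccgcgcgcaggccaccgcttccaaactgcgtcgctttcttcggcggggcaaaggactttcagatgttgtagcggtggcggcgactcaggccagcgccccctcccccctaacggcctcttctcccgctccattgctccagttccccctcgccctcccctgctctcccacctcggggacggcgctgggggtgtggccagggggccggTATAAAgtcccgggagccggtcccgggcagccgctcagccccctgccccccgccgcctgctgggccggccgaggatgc
Igfbp6: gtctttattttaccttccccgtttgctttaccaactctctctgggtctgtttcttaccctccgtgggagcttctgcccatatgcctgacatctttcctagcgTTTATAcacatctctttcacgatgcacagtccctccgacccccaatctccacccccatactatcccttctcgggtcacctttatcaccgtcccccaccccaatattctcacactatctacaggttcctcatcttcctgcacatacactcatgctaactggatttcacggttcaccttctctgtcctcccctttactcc
Each held 1 match to these letters, and 13.6% of all regions held at least 1. The match in Igfbp6 was on the opposite strand and lay farther before the start than that in Igfbp4. The matches are a description of letters only, and a shared element was not tested. The Igfbp4 region had a GC content of 71.3% and the Igfbp6 region 49.7%, so these members did not share a base composition.

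Igfbp7 (chr5:77349240-77408045, reverse strand), a matrix protein of low affinity for the ligands, did not pass the test. It measured 6.49, 5.93, 5.45 and 5.48 log2 CPM in cxC26 scr and 5.98, 6.39, 6.61 and 6.33 in cxC26 IL6KOs1. Only 1 knockout tumor lay above all scr tumors, and cxC26 scr tumor 1 stood above 3 of the 4 knockout tumors. The difference was 0.49 with a 95% interval of 0.03 to 0.95 (adjusted p = 0.0844, limma). Without cxC26 scr tumor 1 it was 0.71 (adjusted p = 0.0063, limma), and without cxC26 IL6KOs1 tumor 1 it was 0.61 (adjusted p = 0.0372, limma), so 1 library decides this call. The span of the gene overlaps that of Polr2b on the other strand. Reads from a shared stretch could not be told apart by strand, and whether exons of the 2 genes overlap was not examined.

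Igfbp3 (chr11:7206086-7215498, reverse strand), the main carrier of IGF in serum, measured 7.82, 7.42, 7.25 and 7.60 log2 CPM in cxC26 scr and 7.49, 7.56, 7.31 and 6.81 in cxC26 IL6KOs1. The groups overlapped and the difference was -0.23 with a 95% interval of -0.59 to 0.13 (adjusted p = 0.289, limma). Igfbp5 (chr1:72858065-72874865, reverse strand), which is bound by the matrix, measured 5.20, 4.13, 3.00 and 3.77 in cxC26 scr and 3.18, 3.69, 4.11 and 4.51 in cxC26 IL6KOs1. It varied more between tumors of 1 group than any other of the 8, with SDs of 0.92 and 0.57. Its difference was -0.15 with an interval of -1.02 to 0.72 (adjusted p = 0.792, limma), and without cxC26 scr tumor 1 it was 0.24. Igfbp2, which lies 5590 bases from Igfbp5 on chromosome 1 (chr1:72824480-72852474, forward strand), had 1, 1, 0 and 0 reads in cxC26 scr and 0, 0, 8 and 6 in cxC26 IL6KOs1. Its 14 reads in the knockout group came from tumors 3 and 4 alone. The ratio of the totals was 7.25 with a 95% interval of 1.67 to 65.7 for counting error only, and the exact permutation p over tumors was 0.371.

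**Figure D2:**
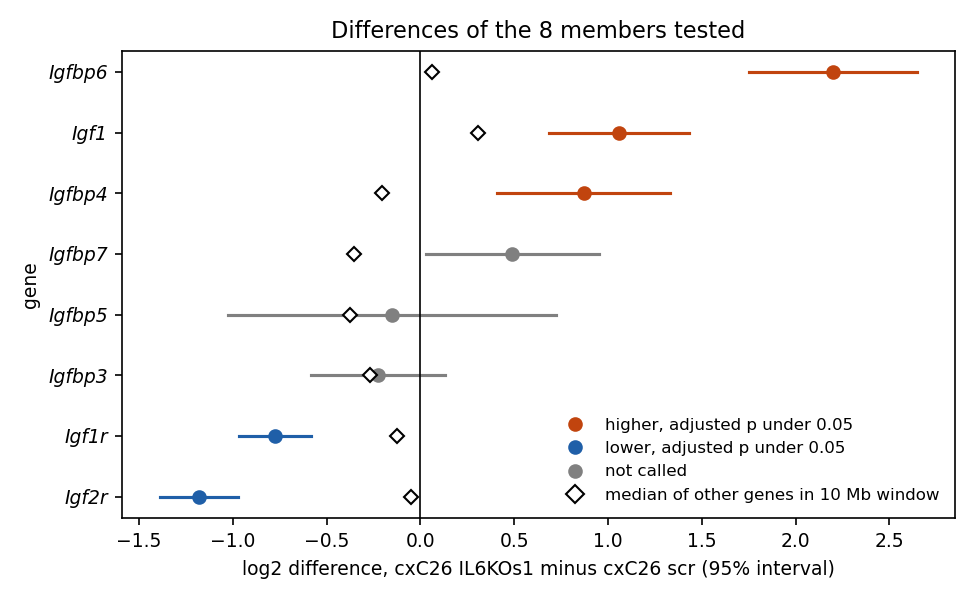
Log2 difference of cxC26 IL6KOs1 minus cxC26 scr (horizontal axis) for the 8 members tested (vertical axis). Circles are limma estimates, lines are 95% intervals, and diamonds are the median difference of the other genes in the fixed 10 Mb window that holds each gene. Igfbp6 stands at 2.20 and Igf2r at -1.18, both far from their window medians of 0.06 and -0.05.

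In cxC26 scr tumor 1 the levels of Igfbp3, Igfbp4, Igfbp5, Igfbp6 and Igfbp7 were all the highest of their group. This was not particular to the binding proteins. Igf1r (7.97 log2 CPM), Igf2r (8.87), Insr (7.76) and Igf2 (11 reads) were also highest of the group in that tumor. The same tumor had the highest sums of fibroblast markers (10450 CPM, against at most 8885 in the other scr tumors) and of pericyte and smooth muscle markers (293 against at most 245). Its sums of endothelial markers (217 against at most 157) and of skin keratinocyte markers (26.4 against at most 13.5) were also the highest. Its macrophage (551), pan-leukocyte (152) and adipocyte (142) sums were the lowest of its group. The part of these cells in the member levels was not tested. Without that tumor the differences of Igfbp4 and Igfbp6 were 1.09 and 2.43 on the log2 scale, so both were larger.

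Per length, that is in CPM per kb of the longest transcript, Igfbp6 and Igfbp4 had the highest mean levels of the 10 members in both groups. Igfbp6 went from 118 ± 45.2 in cxC26 scr to 520 ± 57.6 in cxC26 IL6KOs1 (SD, n = 4 each) and Igfbp4 from 118 ± 41.2 to 210 ± 45.1. Igfbp3 was at 76.7 ± 13.04 and 66.1 ± 14.2, and Igfbp7 at 49.8 ± 17.99 and 67.7 ± 11.9. In cxC26 scr the ranges of each neighbouring pair overlapped along the order Igfbp6, Igfbp4, Igfbp3, Igfbp7 and Igf2r, although Igfbp6, Igfbp4 and Igfbp3 each lay wholly above Igf2r, and Igfbp6 and Igfbp4 wholly above Igfbp7, whereas in cxC26 IL6KOs1 Igfbp6 stood clear of Igfbp4, and Igfbp4 of Igfbp7. The receptors were at 48.0 ± 4.62 and 21.1 ± 1.59 for Igf2r and at 19.4 ± 1.73 and 11.3 ± 0.787 for Igf1r. At the low end came Igfbp5, at 3.15 ± 2.08 and 2.58 ± 0.979, and Igf1, at 0.858 ± 0.135 and 1.80 ± 0.307. The ranges of Igfbp5 and Igf1 overlapped in cxC26 IL6KOs1 and not in cxC26 scr. Igfbp3 and Igfbp7 changed places in the order between groups, as did Igf2 and Igfbp2, and both pairs had overlapping ranges in each group.

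The summed per-length level of the 6 binding proteins was 365 ± 117 (range 280 to 533) in cxC26 scr and 866 ± 92.8 (range 749 to 942) in cxC26 IL6KOs1. Igfbp6 made up 31.9% ± 2.38 of this sum in cxC26 scr and 60.0% ± 2.09 in cxC26 IL6KOs1 (SD, n = 4 each). Igfbp4 went from 32.0% ± 1.24 to 24.2% ± 3.75, Igfbp3 from 21.8% ± 4.29 to 7.57% ± 0.943, and Igfbp7 from 13.5% ± 0.728 to 7.94% ± 1.85. The share of Igfbp4 was thus smaller in the group where its level was higher. Without scaling by length Igfbp6 made up 15.3% and 35.4% of the reads, and Igfbp4 was the largest part in both groups, at 52.9% and 48.8%. The direction for Igfbp6 was thus the same, and that for Igfbp4 a smaller difference, within 1 SD (5.06) of the cxC26 IL6KOs1 tumors.

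**Figure D3:**
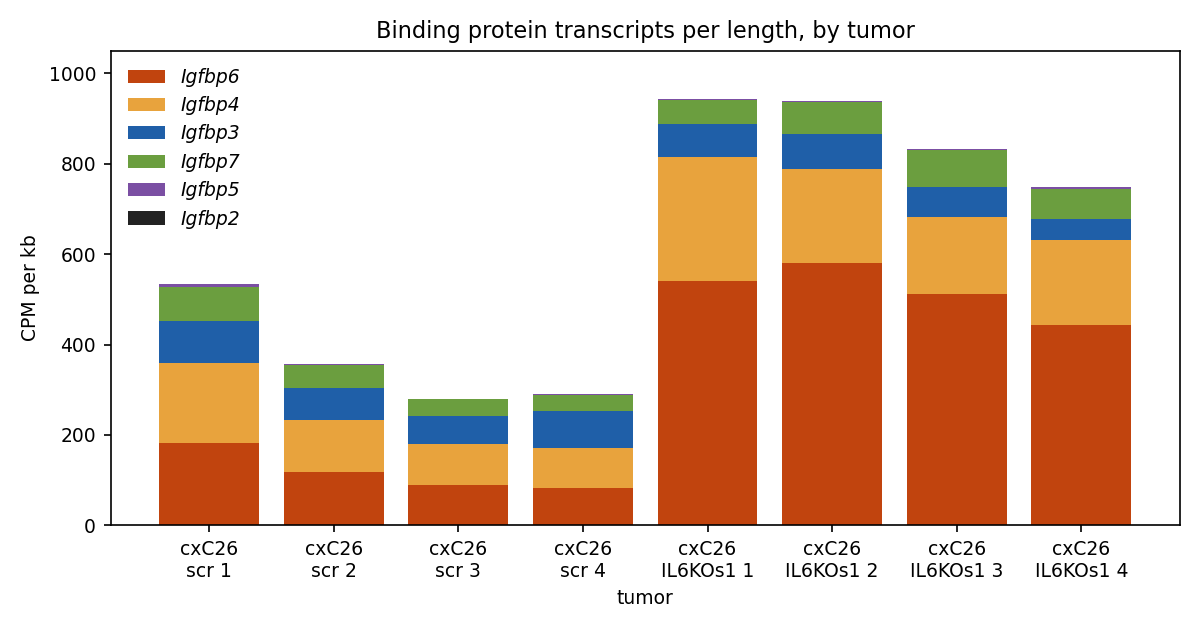
Per-length level of the 6 binding proteins, in CPM per kb (vertical axis), stacked in a bar for each tumor (horizontal axis). The 4 cxC26 IL6KOs1 bars reach 749 to 942 and the 4 cxC26 scr bars 280 to 533, and the Igfbp6 portion at the base is the largest in each cxC26 IL6KOs1 bar.

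In the cxC26 scr tumors Igfbp4, Igfbp6 and Igfbp7 kept a nearly constant ratio although each varied between tumors with an SD of 0.46 to 0.51. Log2 Igfbp4 minus Igfbp6 was 1.79 ± 0.06, Igfbp6 minus Igfbp7 was 1.13 ± 0.05, and Igfbp4 minus Igfbp7 was 2.92 ± 0.06 (SD, n = 4). In the cxC26 IL6KOs1 tumors the same ratios were 0.46 ± 0.27, 2.84 ± 0.33 and 3.30 ± 0.55. The first 2 did not overlap between groups and the last did. Over the 10 ratios among the 5 binding proteins tested and the receptor ratio, 6 of 11 did not overlap. Each had an exact permutation p of 0.0286 and an adjusted p of 0.0524, and 0 of the 11 had an adjusted p under 0.05. Any ratio without overlap takes this smallest possible p. The ratios were chosen after the values had been seen, and most of the 6 hold Igfbp6. They therefore restate differences given above and are not separate results.

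**Figure D4:**
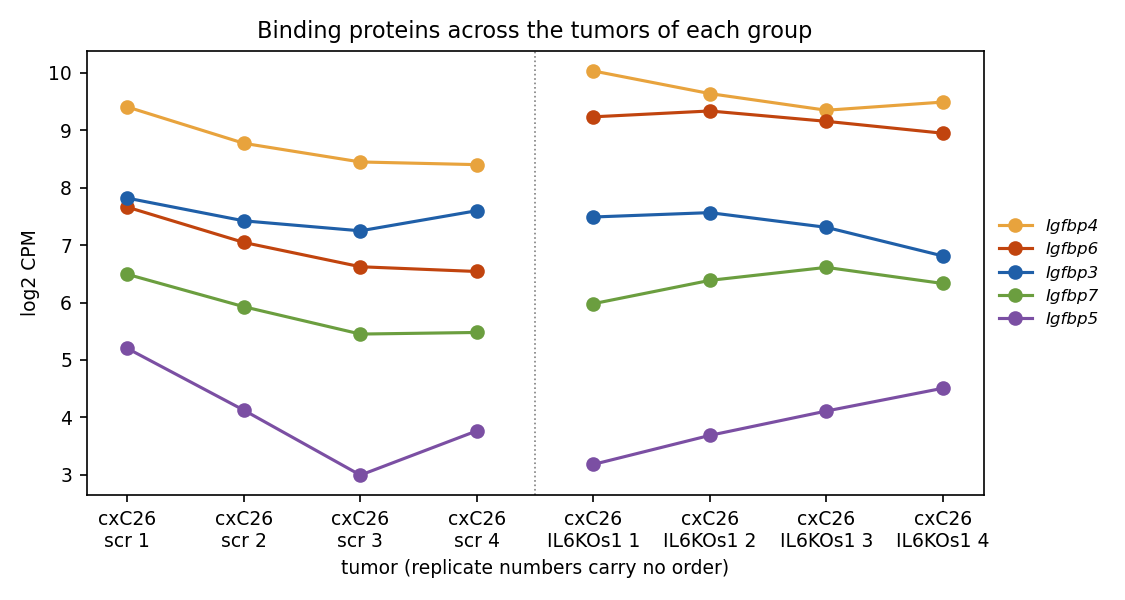
Log2 CPM (vertical axis) of the 5 binding proteins tested in each tumor (horizontal axis), with lines that join the values of a gene within a group and carry no order. The lines of Igfbp4, Igfbp6 and Igfbp7 run in parallel over the cxC26 scr tumors and not over the cxC26 IL6KOs1 tumors, where Igfbp5 and Igfbp7 are lowest in tumor 1 and Igfbp4 is highest.

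Of the nearest relatives, Ins1, Ins2 and Igfbpl1 had 0 reads in every tumor. Igfbp1 had 2 reads and Insrr, the insulin receptor-related receptor, 6 reads in all cxC26 IL6KOs1 tumors, and both had 0 in cxC26 scr. Igfals, the acid-labile subunit that stabilizes the complex of IGF and IGFBP3, had 20 reads in cxC26 scr and 2 in cxC26 IL6KOs1, a ratio of 0.104 (95% interval 0.0117 to 0.426, counting error only). Igf2bp1, an RNA-binding protein named for the Igf2 transcript, had 29 and 3 reads, a ratio of 0.107 (0.0209 to 0.346). Neither passed the filter, and in the limma fit without a filter both were lower (adjusted p = 0.0279 for Igfals and 0.0192 for Igf2bp1). That fit rests on at most 8 reads per tumor for Igfals and 13 for Igf2bp1. The groups overlapped for Igfals (exact permutation p = 0.0571) and not for Igf2bp1 (exact permutation p = 0.0286, the smallest possible). The other RNA-binding proteins of that family did not pass the test, with Igf2bp2 at 6.62 and 6.77 log2 CPM (adjusted p = 0.198, limma) and Igf2bp3 at 0.67 and 0.53 (adjusted p = 0.81, limma).

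Across the wider pathway and its relatives, 83 of 94 listed genes were tested, of which 17 were higher, 25 were lower and 41 were not called, against the 19.1% and 20.7% of all genes given above. In the growth hormone axis, which drives Igf1 in the liver, 1 of 6 was higher and 2 were lower. Socs2, a feedback inhibitor of the growth hormone receptor, rose by 0.99 on the log2 scale (adjusted p = 0.00455, limma), and Cish, another of this family, fell by 1.35 (adjusted p = 0.00102, limma). Ghr, the growth hormone receptor itself and the most abundant of the 6 by read share, fell from 9.12 to 8.78 log2 CPM (adjusted p = 0.0141, limma). Without cxC26 scr tumor 4, 1 of the 6 was lower, and with the stricter filter, a mean of at least 3 log2 CPM, 0 were higher and 1 was lower.

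Among the 8 tested genes of binding protein proteolysis, 1 was higher and 2 were lower. Stc1, a secreted inhibitor of PAPP-A, was at 10.25 ± 0.20 log2 CPM in cxC26 scr and fell to 8.23 ± 0.44 in cxC26 IL6KOs1 (SD, n = 4 each), which left 24.7% of the scr level (adjusted p = 1.79e-05, limma). The protease Adam12 fell by 1.03 (adjusted p = 0.00101, limma) and Adam9 rose by 0.41 (adjusted p = 0.00333, limma). Pappa, which encodes PAPP-A, was at 1.497 and 2.12 log2 CPM in the respective groups (adjusted p = 0.0772, limma) and Stc2 at 1.75 and 1.32 (adjusted p = 0.129, limma), so that neither passed. Without cxC26 IL6KOs1 tumor 1 the number higher was 3, and without cxC26 scr tumor 1 or cxC26 IL6KOs1 tumor 2 it was 2.

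Of the 9 partners tested that bind IGFs or binding proteins at the cell surface, 4 were higher and 2 lower. Itgb4, the integrin subunit that pairs with alpha 6, had the largest difference, from 2.81 ± 0.66 to 6.91 ± 0.44 log2 CPM or 17.2-fold (adjusted p = 3.02e-06, limma), and Itgb3 rose by 0.78 (adjusted p = 0.00648, limma). Cd93, an endothelial receptor for IGFBP7, fell by 1.15 (adjusted p = 0.000361, limma) and Itga5 by 0.66 (adjusted p = 0.00136, limma). Itgb1, with the highest value of the list, was at 10.43 in both groups.

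Downstream of the receptors, 2 of 13 adaptors were higher and 5 were lower. The substrates Irs1 and Irs2, which couple IGF1R to PI3K, fell by 1.08 (adjusted p = 0.000755, limma) and 0.54 (adjusted p = 0.00947, limma). Grb14, an adaptor that inhibits the insulin receptor, rose by 1.17 (adjusted p = 0.00121, limma) and Shc1 by 0.29 (adjusted p = 0.0206, limma), while Nedd4, the highest of the list, was at 9.57 and 9.84 log2 CPM (adjusted p = 0.105, limma). Of 29 genes of PI3K, AKT, mTOR and FOXO, 4 were higher and 11 lower. Rictor, a subunit of mTOR complex 2, fell by 0.87 (adjusted p = 0.000594, limma) and Pik3r1, the regulatory subunit of PI3K, by 0.79 (adjusted p = 0.000444, limma), whereas Foxo1 and Pik3cb each rose by 0.46. Akt1, the highest, was at 8.06 and 8.09. Without cxC26 scr tumor 3 this list had 2 higher and 7 lower, and without cxC26 IL6KOs1 tumor 3 it had 2 higher. With regional medians removed it had 1 higher. Among the adaptors, 2 were lower without cxC26 IL6KOs1 tumor 3, and 1 was higher without cxC26 scr tumor 2, cxC26 scr tumor 4 or cxC26 IL6KOs1 tumor 2. With regional medians removed 1 adaptor was higher and 3 were lower.

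In the sorting pathway that IGF2R serves, 5 of 13 genes were higher and 3 lower. M6pr, the cation-dependent mannose 6-phosphate receptor, rose by 0.48 (adjusted p = 0.00032, limma), opposite to Igf2r. The retromer gene Vps26a rose by 0.79 (adjusted p = 0.000111, limma) and Snx2 by 0.49 (adjusted p = 0.00378, limma), and Vps35, the highest of the list, went from 8.06 to 8.34 (adjusted p = 0.0441, limma). The adaptor Gga2 fell by 0.58 (adjusted p = 0.00101, limma) and Gnptg, a subunit of the enzyme that makes the mannose 6-phosphate tag, by 0.52 (adjusted p = 0.00374, limma).

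**Figure D5:**
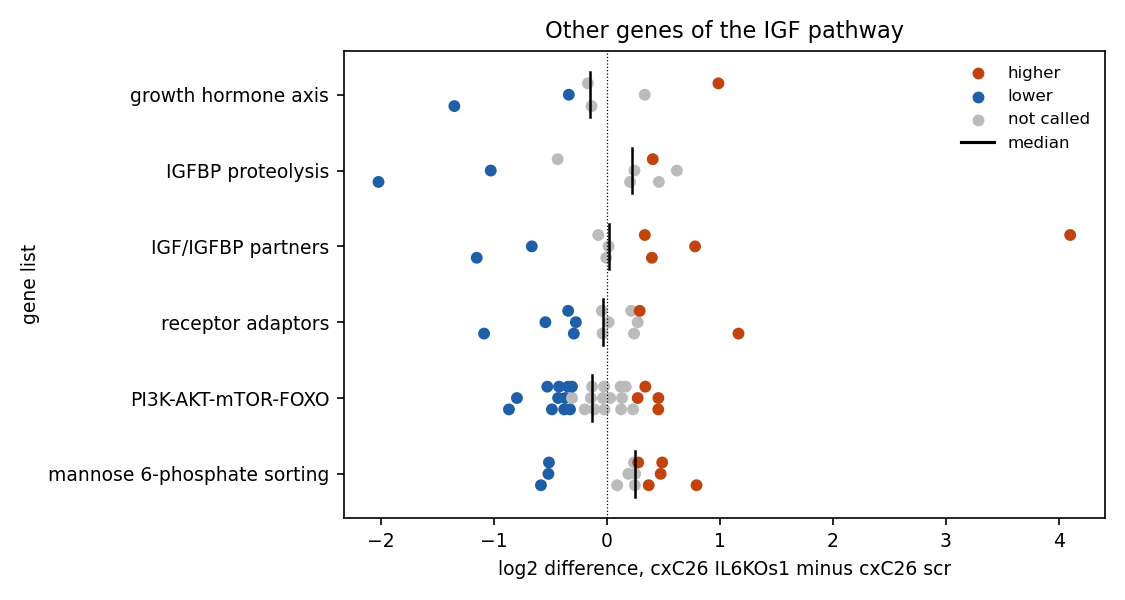
Log2 difference of cxC26 IL6KOs1 minus cxC26 scr (horizontal axis) for the tested genes of 6 pathway lists (vertical axis), in orange where higher, blue where lower and grey where not called by limma, with a black line at each list's median and points spread vertically for legibility. Itgb4 stands alone at 4.10 and Stc1 at -2.02, and most other genes lie within 1 log2 unit of 0.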

How the data were processed

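RNA from 8 subcutaneous C26 tumors, 4 per group, was sequenced after poly(A) selection with a kit that does not mark strand. The authors trimmed the reads with Trimmomatic, aligned them with HISAT2 to mm10 (GRCm38), obtained gene counts with featureCounts, and deposited the log2 CPM that limma-voom gave for 27179 genes. Versions, annotation and strand setting are not given in the sources used here, except bcl2fastq 2.17 from the submitters' processing notes. Reads were recovered by inverting the transformation (offset 0.5 reads, library plus 1), and 100% came out whole within 0.01 reads. Totals of 14158989 to 17048062 reads set the precision of low genes.

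Samples were grouped by their titles. The groups were compared with limma 3.58.1 in R 4.3.3 (lmFit, eBayes with trend) on the deposited log2 CPM of 13262 genes that reached 1 CPM in at least 4 tumors, with Benjamini-Hochberg adjustment over all of them and a threshold of 0.05. The test was checked on simulated data. Single values were compared by two-sided exact permutation over 70 splits (SciPy 1.17.1), and ratios of read totals have exact 95% intervals for counting error. Positions and start regions came from RefSeq (GRCm38.p6), and lengths from GENCODE M21.

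The members, lists and tests were chosen with earlier results of these data known. The text names all members, Il6, the relatives, and up to 2 largest increases and decreases past the threshold and the highest gene of each pathway list. M6pr, Pappa and Stc2 are named in addition. Among markers only colon epithelial genes are named, which are those called, the highest and the near-absent ones. Alternatives were no or a stricter filter, quantile or median normalization, a replicate block, no trend, voom weights, a pseudocount of 1 CPM, removal of regional medians, and each tumor left out. Same-numbered tumors correlated between -0.0593 and 0.057 in their deviations from the group means, so the numbers do not pair them. Protein sequences were not used here.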

Additional observations from a re-analysis of the deposited data

Results flagged for a closer look

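In 50 groups of 4 tumors (members, list means and marker means), 4 had 1 tumor standing apart by Dixon's criterion, where chance gives about 1 in 20, or 2.5. Igf1 was at 2.908 log2 CPM in cxC26 scr tumor 2 and at 2.482 to 2.491 in the other scr tumors. The mean of the growth hormone axis was 5.339 log2 CPM in cxC26 IL6KOs1 tumor 1, against 4.91 to 4.961 in the others. The mean of the PI3K, AKT, mTOR and FOXO genes was 5.836 in cxC26 scr tumor 2, against 5.915 to 5.923. The mean of the pan-leukocyte markers was 4.631 in cxC26 scr tumor 1, against 4.824 to 4.85.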

How the results depend on the processing

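Of 136 member differences recomputed under the alternatives, 129 kept their direction and side of the threshold, 3 newly passed it and 4 reversed. Over 17 alternatives each, the difference ranged from 0.76 to 1.18 for Igf1, -0.82 to -0.58 for Igf1r, -1.25 to -1.13 for Igf2r, 0.74 to 1.09 for Igfbp4 and 2.06 to 2.43 for Igfbp6 on the log2 scale. The adjusted p of Igfbp4 reached 0.038, and all 5 stayed called. With regional medians removed, Igfbp3 was at 0.0031 (adjusted p = 0.991, limma) and Igfbp5 at 0.24 (adjusted p = 0.691, limma), and Igfbp7 passed at 0.89 (adjusted p = 0.00739, limma). With 1 tumor left out, Igfbp5 ranged from -0.49 to 0.24. The cause was not tested. With the replicate block 3 members were higher and 2 lower, Igfbp7 was at 0.49 (adjusted p = 0.125, limma), and no call among the members changed. Of 272 list counts, 254 stayed within 1.5 times, 5 were over 1.5 times higher and 13 over 1.5 times lower. Depth limits Igf2 and Igfbp2, which had at most 11 reads per tumor.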
